A study of Xenopus laevis with 32 samples.

Results

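Entry of the frog egg into its final arrest was examined by comparing oocytes of Xenopus laevis at meiosis II (MII) with oocytes at interkinesis, the interval between the meiotic divisions. The comparison used 12 of the 32 libraries of the study, 6 from each stage, chosen by their stage labels. Each stage was represented by 2 libraries from each of 3 sucrose gradient fractions, which were free messenger ribonucleoprotein (mRNP), monosomes and polysomes. All oocytes at both stages had received progesterone, the hormone that starts maturation, and the time elapsed at these stages is not given in the labels. The other groups of the study were untreated stage VI oocytes, oocytes at 90 minutes of progesterone (PG90) and oocytes at meiosis I (MI), and they enter here through the shared estimate of spread and through the preceding steps. No genetic alteration is named for any group, and the labels do not say how many females gave oocytes or whether oocytes were pooled.

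During maturation a fully grown oocyte makes almost no new RNA and changes its proteins by translating stored maternal mRNAs. Many of these mRNAs are switched on by lengthening of the poly(A) tail, directed by the binding protein CPEB at elements in the 3' untranslated region. At metaphase II the cell is held by cytostatic factor, in which the kinase Mos acts upstream and the anaphase-promoting complex is restrained by Emi2, the product of fbxo43, so that cyclin B and Cdk1 activity persist until fertilization.

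The deposited values were a polysome share and an RNA level for each gene name, stage and column set. The share is the authors' fraction of a transcript in polysomes, given for 6497 names, and what it is a fraction of is not stated in the sources used here. The level is a sum of unstated unit, given for 11765 names listed a single time, and 3307 names had both. Every stage had 2 columns per readout, called x and y here after their suffixes, and these were the replicates. Nothing says that x and y came from separate females, so p-values measure only the spread between these columns. A share change is the difference in log2 odds, log2(share / (1 - share)), after each column was centred on its own median, and a level change is the log2 ratio of MII to interkinesis within a column set. The sequencing depth behind shares and levels is unknown.

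The label of the tissue was checked against levels of marker genes. Of 13 oocyte marker symbols 12 were listed, under 17 names, and their summed level went from 16090 to 19910 in x and from 4120 to 4232 in y between interkinesis and MII. Most of that sum was h1foo.S, with 10180 and 13530 in x and 2893 and 2784 in y, followed by h1foo.L. Other oocyte markers moved either way, and figla.L went from 292.4 to 58.86 in x and from 83.35 to 323.2 in y. The sum therefore does not show that oocyte markers rose as a group. Of 19 symbols for follicle and other somatic cells 3 were listed, namely krt18, cyp17a1 and vim. The granulosa cell genes foxl2, amh, inha and fshr had no listed name. That does not show absence of their RNA, since repeated names were left out and the filters are not given. The summed level of the 3 listed symbols went from 4192 to 3424 in x and from 398.9 to 316.6 in y. The keratin gene krt18.L made up most of it, with 4008 and 3269 in x and 380.2 and 301.5 in y. The level of cyp17a1.L went from 48.71 to 47.79 in x and from 11.38 to 9.48 in y. That of vim.L went from 22.18 to 28.79 in x and from 2.538 to 2.215 in y. These levels do not tell whether krt18.L RNA came from somatic cells or from the oocytes themselves. The part of somatic cells in the results below was not tested.

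Between interkinesis and MII the polysome share moved differently in the 2 column sets, and few transcripts moved together in both. Shared gains included those of pcnp.S, tdp2.S, hnrnpul2.S, cant1.L and the kinetochore gene ndc80.S. Shared losses included those of tapt1.L, the ribosomal stalk gene rplp0.S, stub1.L and fkbp3.L. Cyclin B, btg4 and geminin transcripts, which load onto polysomes during maturation, gained share at this step in column set y, whereas in x most of them already had a high share at interkinesis.

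By limma with Benjamini-Hochberg adjustment, 0 of 6497 names (0.0%) differed in share at an adjusted p under 0.05, and the smallest adjusted p was 0.997. At an unadjusted p under 0.05 there were 245 names (3.77%), of which 129 were higher and 116 lower at MII. A change of at least 1 log2 odds unit in the same direction in both sets was found for 31 names on the higher side (0.477%) and for 21 on the lower side (0.323%). Since no name passed the adjusted test, gain and loss below give the direction of the values and not a test result. At any size, 1694 names (26.1%) were higher in both sets and 1521 (23.4%) were lower in both. The median share itself went from 0.266 to 0.233 in x and from 0.295 to 0.268 in y, so that the column medians shifted by -0.25 and -0.19 log2 odds. Without centring, the split of the shared changes was 9 higher and 53 lower, so directions given here are relative to the median transcript.

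**Figure D1:**
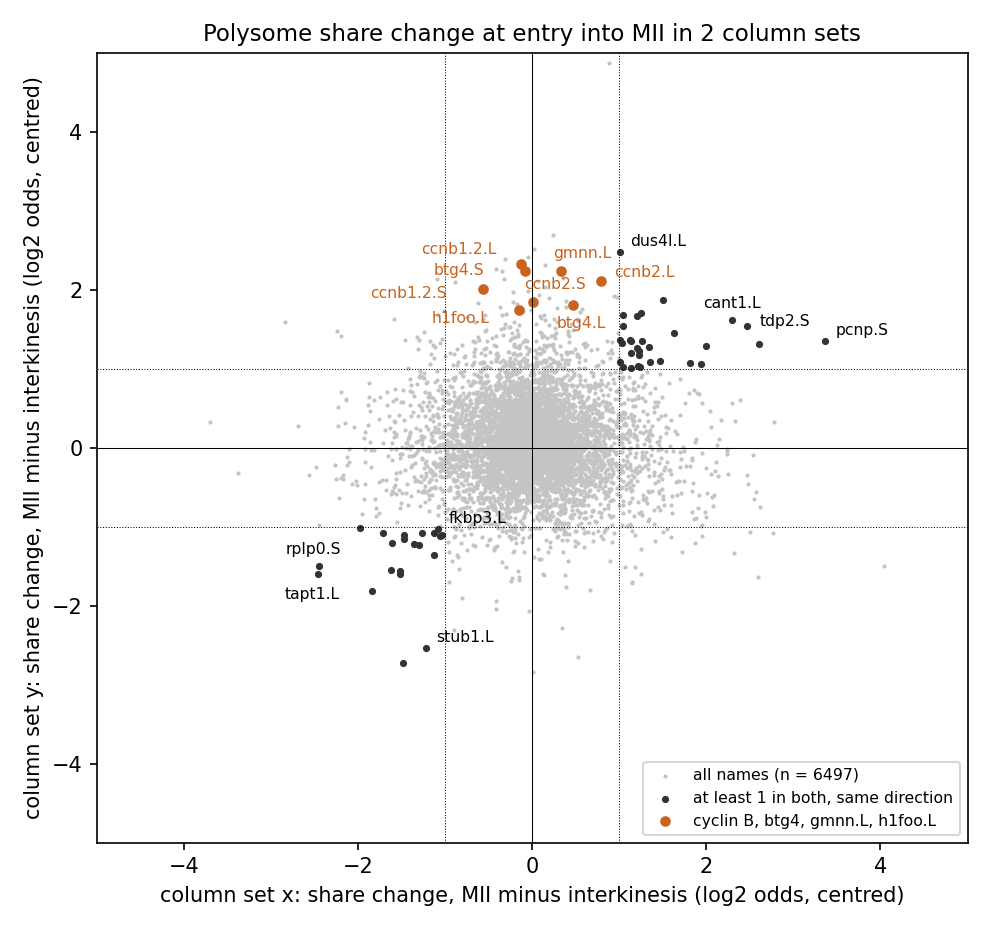
Change in polysome share from interkinesis to MII, in centred log2 odds, in column set x (horizontal) against column set y (vertical) for 6497 names. Dark points are the 31 names higher and the 21 names lower by at least 1 in both sets, dotted lines mark that threshold, and the transcripts labelled in orange (cyclin B, btg4, gmnn.L and h1foo.L) lie above 1.7 in y and under 1 in x.

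Across names, the changes in x and y were not correlated, with a Spearman correlation of -0.018 and a Pearson's r of -0.008. The shares themselves had a Spearman correlation of 0.545 at interkinesis and 0.561 at MII. Names are not independent replicates, and these values are descriptions. The median SD of a share between the columns of a stage was 0.0478 at interkinesis and 0.0497 at MII. In x 365 names were at least 1 unit higher and in y 330 were. The 31 in common made up 8.49% of the x list and 9.39% of the y list. Of all names 5.08% were at least 1 unit higher in y and 5.62% in x. On the lower side the lists held 351 and 166 names, and the 21 in common made up 5.98% and 12.7% of them. Of all names 2.6% were at least 1 unit lower in y and 5.4% in x.

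Of the 31 shared gains, 12 were gene model identifiers without a symbol. The largest by the smaller of the x and y changes, among names also above the median level, was cant1.L, which encodes a Golgi nucleotidase activated by calcium. Its share went from 0.468 at interkinesis to 0.784 at MII in x and from 0.219 to 0.430 in y. The stages overlapped, because the MII value in y was below the interkinesis value in x, although both sets moved up, by 2.29 and 1.62 log2 odds (limma change 1.96, SE 0.84, adjusted p 0.997).

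The gene mybl2.S encodes B-Myb, a transcription factor of cell cycle genes, and its share was low at both stages, going from 0.0631 to 0.115 in x and from 0.0638 to 0.126 in y. That pattern undid the preceding step, since at MI the shares of mybl2.S had been 0.116 and 0.129.

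Outside the level filter lay 3 more gains that are named after their values were seen. The transcript pcnp.S, for a nuclear protein with PEST sequences, went from 0.167 to 0.633 in x and from 0.449 to 0.645 in y. For tdp2.S, which encodes a phosphodiesterase that repairs topoisomerase lesions, the share went from 0.183 to 0.509 in x and from 0.408 to 0.638 in y. Both MII values exceeded both interkinesis values in each of these transcripts. Transcripts named for a shared change were chosen on these same values. A lack of overlap between stages, here or below, thus follows partly from the choice and is no test. The share of hnrnpul2.S, for an RNA-binding protein, went from 0.410 to 0.780 in x and from 0.385 to 0.578 in y, again without overlap.

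Other transcripts named by the rule also gained share in both sets. The share of dus4l.L, for a tRNA dihydrouridine synthase, differed by 1.0 in x and 2.48 in y, that of immp1l.L, for a mitochondrial inner membrane peptidase, by 1.04 and 1.69, and that of c1d.L, for a cofactor of the nuclear exosome, by 1.24 and 1.02. The changes were 1.0 and 1.13 for polr2g.L, for an RNA polymerase II subunit, and 0.95 and 0.97 for coq5.L, for an enzyme of ubiquinone synthesis. The spliceosome gene ccdc12.L differed by 0.94 and 1.92.

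Of the 21 shared losses, 10 were gene model identifiers. The largest by the same rule was tapt1.L, whose membrane protein is known from mouse skeletal patterning. Its share went from 0.306 at interkinesis to 0.0626 at MII in x and from 0.305 to 0.112 in y. Both MII values lay below both interkinesis values by more than the spread between columns. The limma change was -2.04 (SE 0.40, unadjusted p 0.00037), but the adjusted p was 0.997. Since tapt1.L was named for its fall in these same values, the gap and the unadjusted p are no separate test of it.

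The share of fkbp3.L, which encodes a nuclear peptidyl-prolyl isomerase, went from 0.307 to 0.149 in x and from 0.386 to 0.212 in y. This continued an earlier decline, since the shares at MI had been 0.417 and 0.448, and the stages did not overlap. For rplp0.S, which encodes the ribosomal stalk protein P0, the share went from 0.448 to 0.111 in x and from 0.448 to 0.201 in y. The stub1.L share, for a ubiquitin ligase that works with chaperones, went from 0.267 to 0.116 in x and from 0.295 to 0.0591 in y, and these last 2 transcripts, which had no level or lay outside the level filter, were named after their values were seen.

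Further losses past the threshold in both sets included eif3s4.S, for a subunit of initiation factor eIF3, with -1.61 in x and -1.21 in y, and atp5f1.S, for a subunit of the ATP synthase stalk, with -1.48 and -1.11. The malectin gene mlec.L, for a lectin of the endoplasmic reticulum, differed by -1.36 and -1.21, and the deubiquitinase gene usp32.S by -1.27 and -1.08. Among transcripts named by the rule, the sphingolipid enzyme gene degs2.L differed by -1.06 and -0.99, the proteasome activator gene psme1.L by -1.09 and -0.85, the peroxiredoxin gene prdx2.L by -1.0 and -0.82 and the mitochondrial ribosome recycling gene mrrf.L by -1.18 and -0.80. The other members named on this side, MGC75752.L, fam222a.L, surf2.L and rbm48.S, differed by between -0.76 and -1.80 in each set.

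The step from MI to interkinesis shares the interkinesis columns with this comparison, in the opposite sense, so names chosen on the MII step tend to show a reversal there by the choice alone. Of the 31 gains, 15 had been lower at interkinesis than at MI in both sets, and of the 21 losses 12 had been higher. Measured from MI to MII, 10 of the 31 were at least 1 unit higher in both sets, among them ndc80.S, tdp2.S, hnrnpul2.S, dus4l.L, c1d.L and immp1l.L. Of the 21 losses 5 were at least 1 unit lower from MI to MII in both sets, namely fkbp3.L, rplp0.S, atp5f1.S, rsph6a.L and 1 gene model identifier. The change from MI to MII shares the MII columns on which the names were chosen. These counts thus follow partly from the choice and are no test.

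**Figure D2:**
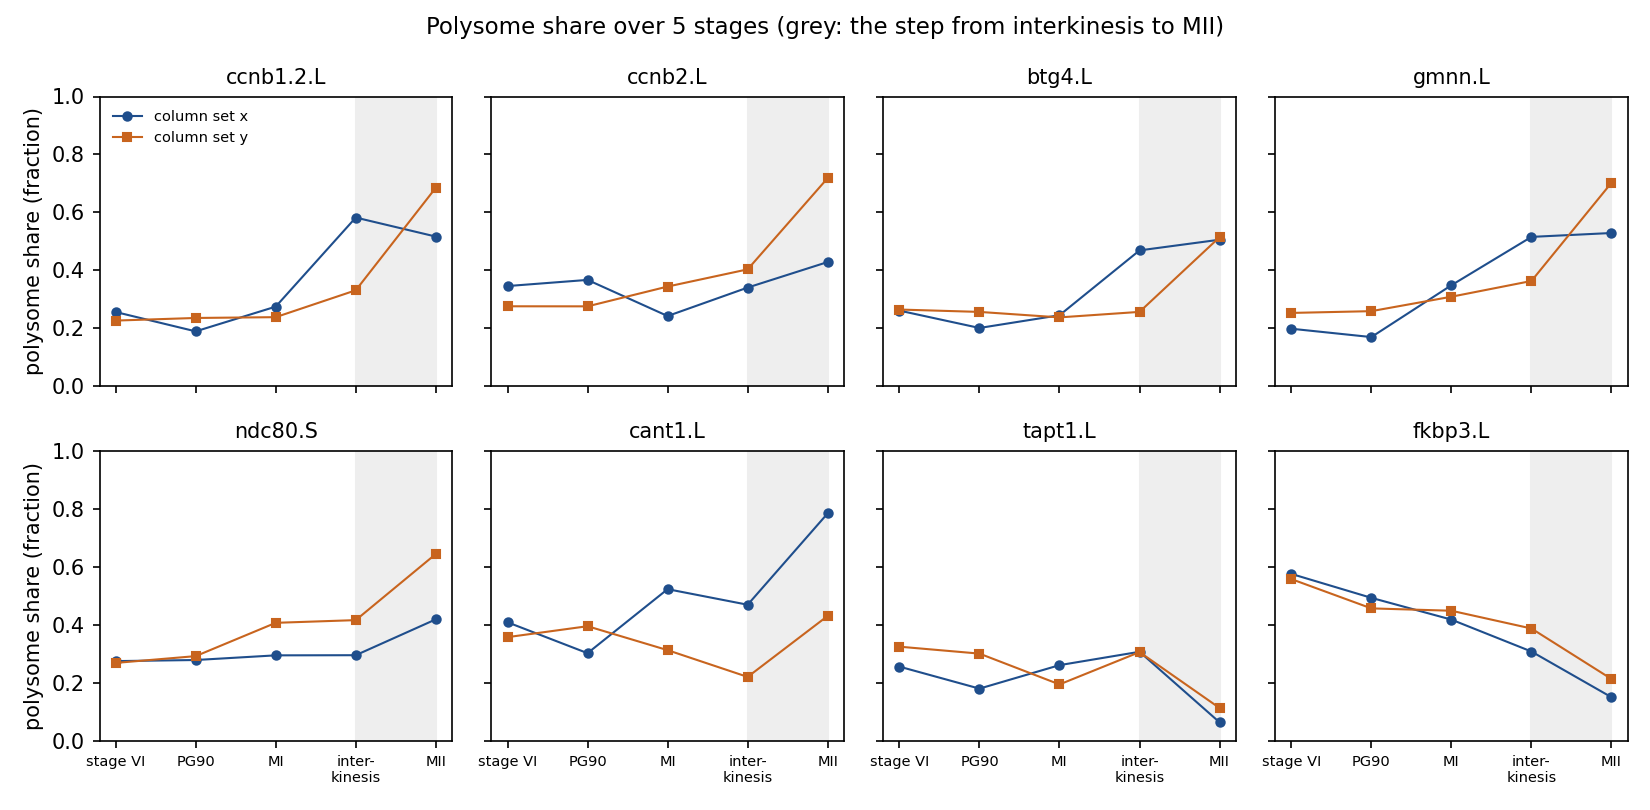
Polysome share of 8 transcripts at 5 stages, with column set x in blue and y in orange and the step from interkinesis to MII shaded. For ccnb1.2.L, btg4.L and gmnn.L the main gain lies before interkinesis in x and after it in y, ndc80.S and cant1.L gained in both sets at the shaded step, and tapt1.L and fkbp3.L lost share in both.

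The cyclins showed the difference between the column sets most plainly. Cyclin B binds Cdk1 to form maturation promoting factor, and its synthesis between the divisions returns the oocyte to a metaphase. In x the share of ccnb1.2.L was 0.275 at MI, it was 0.582 at interkinesis and it was 0.517 at MII. In y it was 0.239, 0.332 and 0.685. The difference between MII and interkinesis was therefore -0.13 in x and 2.33 in y, and the stages overlapped, since the interkinesis share in x exceeded the MII share in x.

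Its homeolog ccnb1.2.S differed by -0.57 in x and 2.01 in y, with shares of 0.579 and 0.438 in x and 0.378 and 0.681 in y. For ccnb2.S the same series of shares was 0.267, 0.558 and 0.516 in x and 0.314, 0.350 and 0.629 in y. The copy ccnb2.L was the only 1 of the 15 cyclin and Cdk1 regulator names with an unadjusted limma p under 0.05. Of all names 3.77% had such a p, and at this list size a count of 1 is close to that share. The ccnb2.L share went from 0.341 to 0.429 in x and from 0.404 to 0.719 in y, a mean change of 1.45 (SE 0.50, unadjusted p 0.016, adjusted p 0.997).

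The transcripts of btg4 and geminin had the same order of values. The gene btg4 encodes an adaptor that brings the Ccr4-Not deadenylase to maternal mRNAs, as known from mouse eggs. The btg4.L share at MI was 0.245 in x and 0.238 in y. At interkinesis it was 0.469 in x and 0.257 in y, and at MII 0.506 and 0.515. For gmnn.L, which encodes the replication inhibitor geminin, the series from MI on was 0.349, 0.516 and 0.529 in x and 0.309, 0.364 and 0.703 in y. In both genes most of the gain lay before interkinesis in x and after it in y. The changes of btg4.S were -0.08 in x and 2.24 in y.

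The oocyte linker histone transcripts were high throughout. The share of h1foo.L went from 0.698 to 0.636 in x and from 0.733 to 0.889 in y, and that of h1foo.S from 0.674 to 0.623 and from 0.785 to 0.886. The histone variant gene h2afz.L differed from these in having a gain in both sets, from 0.336 to 0.414 in x and from 0.413 to 0.594 in y (0.74 and 1.25). Whether x and y differed at this step for any single transcript was not tested, because each set has 1 column per stage.

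Across all names, some steps that bear different labels paired better than the MII steps of the sets did. The other steps of the same label had Spearman correlations of 0.087 to PG90, 0.207 to MI and 0.184 to interkinesis. The change of each name from interkinesis to MII in y had a Spearman correlation of 0.276 with its change from PG90 to MI in x and of 0.167 with its change from MI to interkinesis in x, against -0.018 with its change at the same step in x. The change in x at the MII step had a Spearman correlation between -0.061 and -0.005 with all 4 steps in y. Taken over both steps, from MI to MII, the changes in x and y had a Spearman correlation of 0.227. The steps in x and y share no columns, and which libraries each set holds is not given in the sources used here.

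The 330 names at least 1 unit higher in y at the MII step had a median change in x of 0.61 at the MI step, 0.52 at the interkinesis step and 0.01 at the MII step. Of these 330, 101 (30.6%) were at least 1 unit higher in x at the MI step. The count was 84 (25.5%) at the interkinesis step, and at either step 7.36% of all names passed. At the MII step in x the count was 31 (9.39%), against 5.62% of all names. The 166 names at least 1 unit lower in y did not show this order of medians. Their median changes in x were -0.25 at the MI step, 0.01 at the interkinesis step and -0.10 at the MII step. Of these 166, 35 (21.1%) were at least 1 unit lower in x at the MI step, against 5.5% of all names. The counts were 17 (10.2%) at the interkinesis step, against 5.22%, and 21 (12.7%) at the MII step, against 5.4%. Both the gains and the losses in y thus had their largest count in x at the MI step. The 365 names at least 1 unit higher in x at the MII step had in y a median change of -0.07 at the MI step, 0.05 at the interkinesis step and -0.04 at the MII step. What made the sets differ at this step was not tested.

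**Figure D3:**
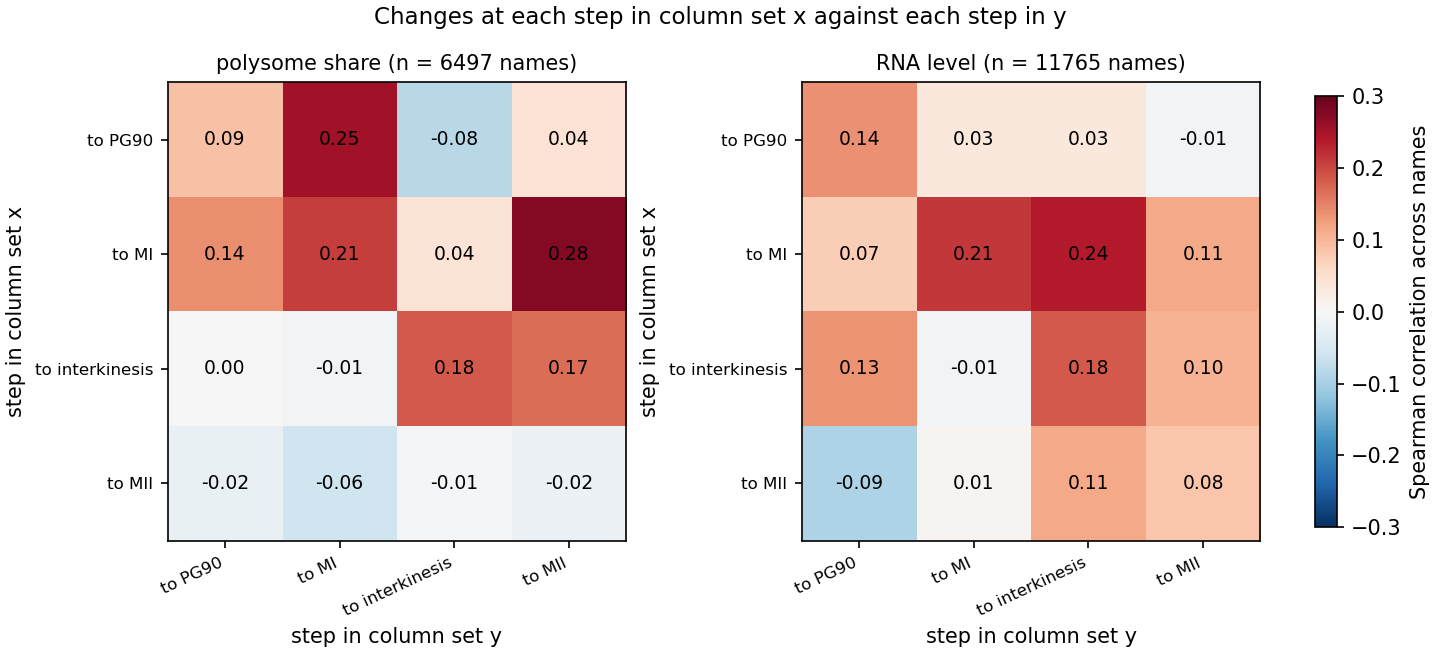
Spearman correlation across names between the change at each step in column set x (rows) and at each step in column set y (columns), for polysome share (left, 6497 names) and RNA level (right, 11765 names). For share, the y step to MII pairs with the x steps to MI (0.28) and to interkinesis (0.17), and the x step to MII (bottom row) pairs with no y step.

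As a group, the genes of the arrest machinery had median share changes near those of all names. The list of metaphase II arrest and exit genes had 19 names in the share table, with median changes of -0.04 in x and 0.09 in y. Of the 19, 3 (15.8%) were higher and 6 (31.6%) lower in both sets, against 26.1% and 23.4% of all names. An unadjusted limma p under 0.05 was found for 0 of the 19, against 3.77% of all names, a difference too small to read at this list size. The share of mos.L, for the kinase of cytostatic factor, went from 0.210 to 0.191 in x and from 0.277 to 0.340 in y (0.09 and 0.62 relative to the median).

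Polo-like kinase 1 acts on Emi2 and on spindle assembly, and the share of plk1.L went from 0.705 to 0.662 in x and from 0.501 to 0.569 in y. The largest shared loss of the list was in the checkpoint kinase gene bub1.L, from 0.279 to 0.143 in x and from 0.378 to 0.294 in y (-0.96 and -0.36). The values of the stages overlapped for mos.L, plk1.L and bub1.L.

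Spindle and kinetochore genes leaned higher. Of 35 names 18 (51.4%) were higher and 4 lower in both sets, against 26.1% and 23.4% of all names, with medians of 0.08 in x and 0.43 in y. Without centring the counts were 7 higher and 9 lower, against 10.5% and 43.5% of all names. The gene ndc80.S, for the microtubule-binding subunit of the outer kinetochore, was the only 1 of the list past the threshold in both sets. Of all names 0.477% were past it on the higher side. The ndc80.S share went from 0.294 to 0.418 in x and from 0.415 to 0.643 in y (1.04 and 1.54).

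Survivin, borealin and INCENP form the chromosomal passenger complex with Aurora B. The share change of the survivin gene birc5.2.S was 1.05 in x and 0.43 in y, that of the borealin gene cdca8.L was 0.61 and 0.85, and that of incenp.L was 0.16 and 1.28. The share of aurka.L, for Aurora A of the spindle poles, went from 0.527 to 0.473 in x and from 0.456 to 0.422 in y, which was -0.06 and -0.01 relative to the median. Of 8 names of the anaphase-promoting complex and its partners 6 were higher and 1 lower in both, against 26.1% and 23.4% of all names. They included cdc27.L, for a core subunit, with 0.70 and 0.56, and anapc15.S with 0.80 and 0.58, and fzr1.L, for the Cdh1 activator, was the lower 1, with -0.24 and -0.20.

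Ribosomal protein and proteasome genes leaned lower. Of 45 ribosomal protein names 21 (46.7%) were lower and 1 (2.22%) higher in both sets, against 23.4% and 26.1% of all names, with medians of -0.07 in x and -0.58 in y, so the shift was carried mainly by y. Besides rplp0.S, examples were rpl38.L, with -1.45 and -0.58, and rps13.L, with -0.60 and -0.87, and the exception was rpl3.S, with 0.66 and 0.29. Of 20 proteasome names 12 (60.0%) were lower and 3 (15.0%) higher in both sets, with medians of -0.19 and -0.31. The base subunit gene psmd2.L went from 0.363 to 0.211 in x and from 0.363 to 0.203 in y, with no overlap of the stages.

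Nuclear genes of the respiratory chain gave 12 lower (38.7%) and 3 higher in both sets of 31 names, and mitochondrial ribosomal proteins gave 9 lower (45.0%) and 2 higher of 20, beside the same 23.4% and 26.1%. The mitochondrial gene mrps12.S differed by -0.90 in x and -0.87 in y. Translation factors did not lean, with 10 higher and 11 lower of 45, and neither did DNA replication genes, with 6 and 6 of 23. Of 36 names for CPEB, deadenylation and stored mRNP proteins, 4 were higher and 6 lower. Their largest shared loss was in cnot1.L, the scaffold of the Ccr4-Not deadenylase, with -0.49 and -1.15. The lists were not tested as sets, and 0 of their members passed the adjusted threshold in limma.

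**Figure D4:**
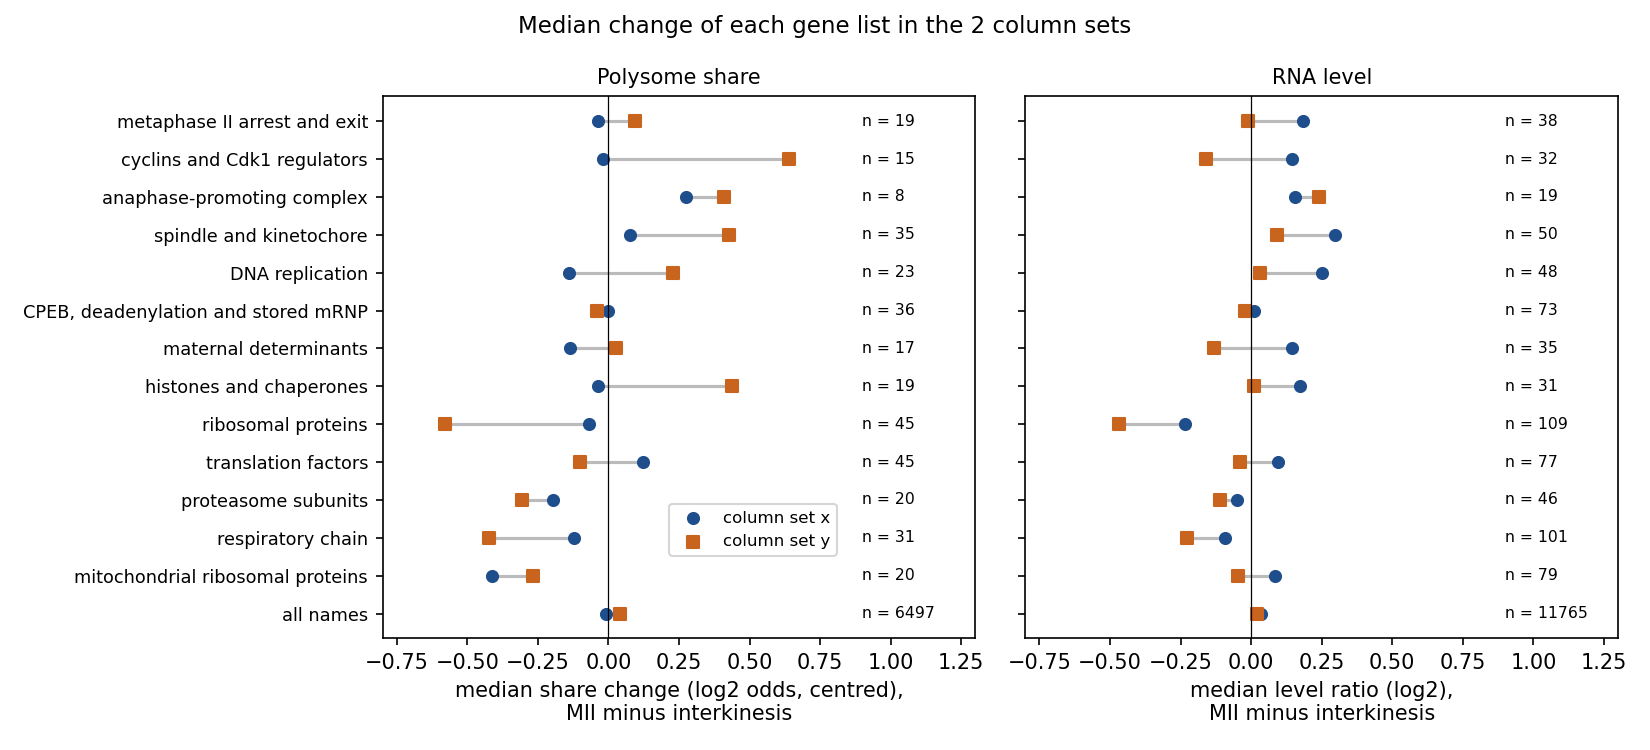
Median change from interkinesis to MII of 13 gene lists and of all names, in column set x (blue circles) and y (orange squares), for polysome share in centred log2 odds (left) and RNA level in log2 ratio (right), with the number of names at the right of each row. Ribosomal protein medians are below 0 in both sets and both readouts, and the cyclin list differs most between x and y in share.

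RNA levels differed by 2-fold in both column sets at few names. Among these were 4 of the 9 names beginning with hist, a group chosen after its values were seen, which were lower at MII. Levels of mbd1.L, scd.L, ube2j2.L and osbpl8.L were also lower, and those of asb7.L, cxadr.S, mrps18b.L, copb1.L and rc3h1.L were higher. In the cyclin and arrest lists 0 names differed by 2-fold in both sets, against 0.348% higher and 0.518% lower of all names. With 32 and 38 names in these lists, a count of 0 is close to those shares and is no result about them. RNA was captured by oligo(dT), per the labels' protocols, so a lower level can be less RNA or less capture. In such bulk samples fewer cells with a transcript and less of it per cell cannot be told apart.

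By limma with Benjamini-Hochberg adjustment, 0 of 11765 names (0.0%) differed in level at an adjusted p under 0.05, the smallest adjusted p being 0.309. At an unadjusted p under 0.05 there were 545 names (4.63%). A level at least 2-fold higher in both sets was found for 41 names (0.348%) and at least 2-fold lower for 61 (0.518%). At any size, 3525 names (30.0%) were higher in both and 2759 (23.5%) lower. The Spearman correlation between the level changes in x and y was 0.0822 over all names and 0.162 over the 5074 names above the median level in both sets. The 61 shared losses made up 16.7% of the names at least 2-fold lower in x and 14.1% of those in y. Of all names 3.67% were at least 2-fold lower in y and 3.1% in x. The 41 shared gains made up 9.69% of the names at least 2-fold higher in x and 17.3% of those in y. Of all names 2.01% were at least 2-fold higher in y and 3.6% in x.

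All 9 names beginning with hist, a group chosen after their values were seen, were lower at MII in both sets, with medians of -2.13 in x and -0.79 in y. Of all names 23.5% were lower in both sets. These names are annotated as core and linker histones, most of which are made from clustered genes. Similar histone copies may share reads, so the 9 names may not be separate observations. The level of hist1h2bj.L, an H2B name, went from 11020 to 2527 in x and from 600.8 to 400.7 in y. That of hist2h3c.L, an H3 name, went from 6069 to 1228 in x and from 247.7 to 142.9 in y. Levels in x and y are on different scales and are compared only within a set.

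Of the 9 names 4 were past 2-fold in both sets, against 0.518% lower of all names. The group was chosen on these same values, so the count is no test of it. The level of hist1h2ad.1, an H2A name, went from 210.8 to 26.7 in x and from 20.4 to 5.66 in y, and that of hist1h3g.L from 110.0 to 30.7 in x and from 7.25 to 2.15 in y. For hist1h3g.L the limma change was -1.80 (SE 0.22, unadjusted p 0.000117, adjusted p 0.459), and it was the most even of the group. The others were hist2h2ab.L, with -2.68 and -1.41, and its homeolog hist2h2ab.S, with -2.12 and -1.25, which may share reads.

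The decline began before interkinesis in y and largely after it in x. From MI to interkinesis the median change of the 9 names was -0.42 in x and -1.89 in y, and at the MII step it was -2.13 and -0.79. In y hist1h3g.L and hist1h1t were exceptions, with most of their decline at the MII step. The H3 name hist2h3d.L stayed apart, with 1811 and 1693 in x and 393.4 and 317.3 in y. The variant histone gene h3f3b.L, whose transcripts are polyadenylated in animals, went from 106.5 to 123.4 in x and from 11.3 to 12.4 in y. The level of h1foo.S went from 10180 to 13530 in x and from 2893 to 2784 in y. In the list of histones and chaperones, 13 of 31 names (41.9%) were higher and 5 (16.1%) lower in both sets, against 30.0% and 23.5% of all names.

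**Figure D5:**
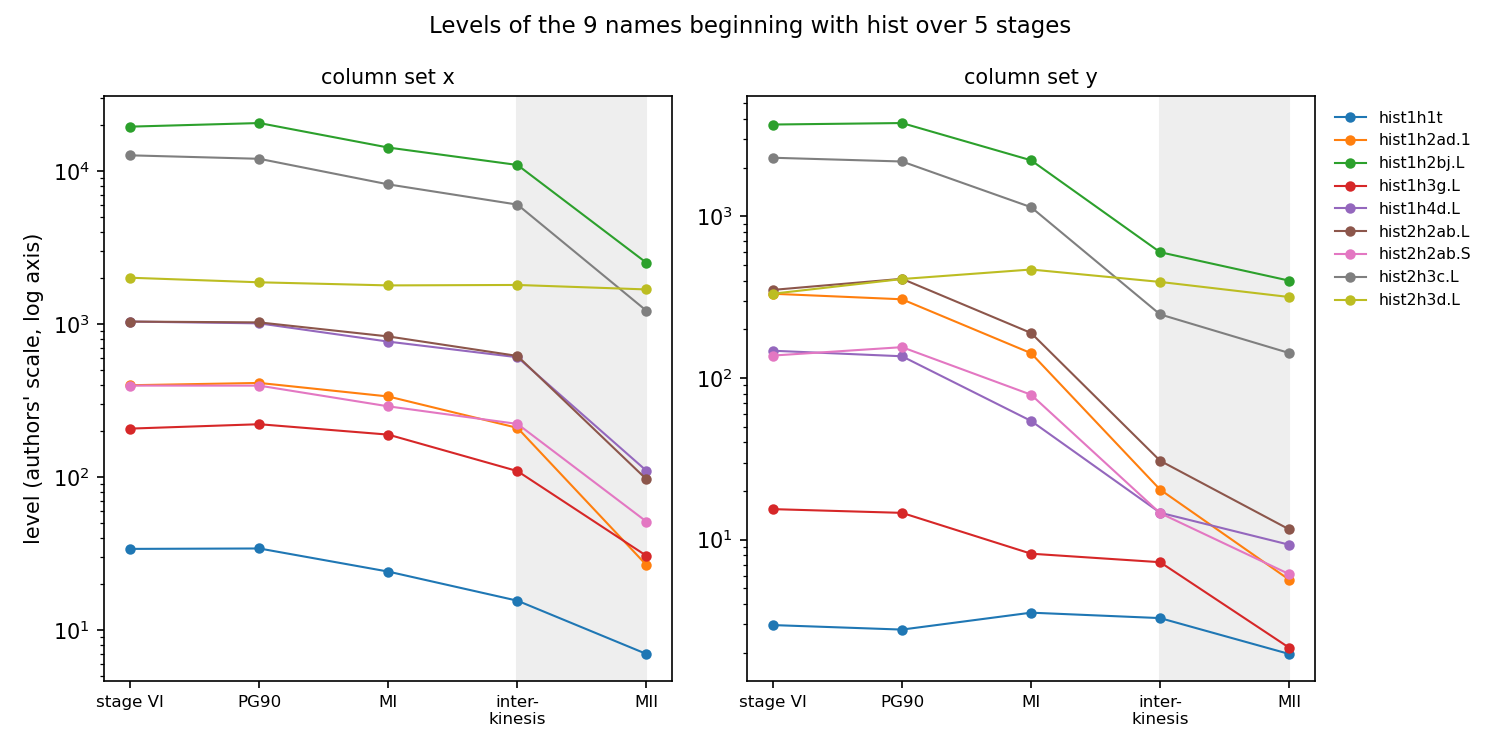
Levels on a log axis, in the authors' scale, of the 9 names beginning with hist at 5 stages in column set x (left) and y (right), with the step from interkinesis to MII shaded. All 9 are lower at MII than at interkinesis in both sets, for most names most steeply at the shaded step in x and at the step before it in y, and hist2h3d.L is nearly level.

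Many other losses carried provisional locus names. Of the 61 shared losses 32 were LOC names, and among all 2119 LOC names the proportion at least 2-fold lower in both sets was 1.51%, against 0.301% of the other names. In the gene order of the RefSeq assembly Xenopus_laevis_v10.1, the 100 genes on each side of the histone gene h4c1.L on chromosome 9_10L matched 41 names of the level table. Of these 41, 10 (24.4%) were at least 2-fold lower in both sets, against 0.518% of all names, and 1 was at least 2-fold higher. Neighbouring names may share reads and may not be separate observations. For example, LOC108703794 and LOC108703797 had the same log2 ratio in y, -0.09381. The window was chosen after the values were seen, and the LOC names in it have no gene name in the tables used here.

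Apart from histones, the lower levels named by the rule were of 2 kinds. The level of scd.L, for the stearoyl-CoA desaturase that makes unsaturated fatty acids, was steady from MI to interkinesis and then lower, with 3763, 3630 and 136 for MI, interkinesis and MII in x and 440.8, 339.1 and 86.0 in y. In contrast mbd1.L, for a methyl-CpG binding protein, was high only at interkinesis, with 25.1, 1870 and 32.0 in x and 14.6, 34.4 and 3.88 in y. The ubiquitin-conjugating enzyme gene ube2j2.L had the same form, with 38.6, 111 and 28.9 in x and 7.74, 109 and 4.52 in y, and so did osbpl8.L, for a lipid transfer protein, with 124, 335 and 61.8 in x and 14.7, 50.1 and 14.4 in y. All were chosen for a fall in both sets, so their common direction follows from the choice.

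Of the 61 shared losses, 9 had been at least 2-fold higher at interkinesis than at MI in both sets. From MI to MII 33 were at least 2-fold lower in both sets. Both counts share columns with the step on which the names were chosen, and follow partly from the choice. LOC108716542, LOC108717648 and LOC108705922 were also named by the rule, and were 8.33, 8.12 and 4.44 times lower in x and 5.43, 5.12 and 25.8 times lower in y. The chaf1b.L level, for a subunit of the chromatin assembly factor that deposits new histones, was low and went from 8.70 to 3.95 in x and from 4.64 to 2.29 in y.

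Among higher levels, the largest by the rule was asb7.L, for a ubiquitin ligase adaptor with ankyrin repeats, which went from 21.0 to 318 in x and from 1.24 to 18.1 in y, or 15.2-fold and 14.6-fold. That of cxadr.S, for a cell adhesion receptor, went from 77.9 to 1431 in x and from 26.5 to 142 in y. The level of mrps18b.L, for a mitochondrial ribosomal protein, went from 32.1 to 176 in x and from 3.12 to 37.5 in y, with a limma change of 3.02 (SE 0.34, unadjusted p 8.6e-05, adjusted p 0.459). These genes were chosen as the largest rises in both sets, so their common direction and size follow largely from the choice.

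The coatomer gene copb1.L, for a coat protein of Golgi vesicles, was 4.83-fold and 6.58-fold higher, and rc3h1.L, for Roquin, which promotes decay of mRNAs, was 5.69-fold and 2.92-fold higher. The peroxisome gene pex11a.L was 7.70-fold higher in x and 109-fold higher in y, where it went from 1.2 to 131. The 2 LOC names of the rule, LOC108712531 and LOC108704288, were between 2.92-fold and 3.75-fold higher. With the same limit of shared interkinesis and MII columns, of the 41 shared gains 22 had been lower at interkinesis than at MI in both sets. From MI to MII 14 were at least 2-fold higher in both sets. The asb7.L level had been 31.4 in x and 58.9 in y at MI, so that in y its MII level did not exceed that of MI.

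Several shared gains belonged to cell cycle genes of the lists. The level of bora.S, for the Aurora A cofactor that activates Polo-like kinase 1, went from 211 to 478 in x and from 20.7 to 108 in y. It was the only 1 of 50 spindle and kinetochore names past 2-fold in both sets, against 0.348% higher of all names. Of those 50 names 24 (48.0%) were higher and 4 lower in both, against 30.0% and 23.5% of all names. The motor gene kif11.S went from 632 to 966 in x and from 34.2 to 51.0 in y, and aurka.L went from 132 to 241 in x and from 14.9 to 19.4 in y. The survivin gene birc5.2.S was an exception, from 319 to 167 in x and from 38.0 to 28.8 in y.

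Of 19 names of the anaphase-promoting complex 10 were higher and 1 lower in both sets, against 30.0% and 23.5% of all names. The RING subunit gene anapc11.L went from 146 to 359 in x and from 7.88 to 13.3 in y, and anapc15.L was the lower 1, from 33.9 to 16.3 in x and from 10.4 to 2.53 in y. Of 48 DNA replication names 18 (37.5%) were higher and 8 (16.7%) lower in both sets, against the same 30.0% and 23.5%. The helicase gene mcm7.S went from 93.6 to 212 in x and from 60.6 to 137 in y, but at MI it had been 276 and 541. The replication complex gene gins1.S was 2.23-fold higher in each set.

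For the arrest genes the level changes were small or uneven. Of 38 names 11 (28.95%) were higher and 5 (13.2%) lower in both sets, against 30.0% and 23.5% of all names. The count past 2-fold in both was 0, against 0.348% higher and 0.518% lower of all names. An unadjusted limma p under 0.05 was found for 0, against 4.63% of all names. At this list size neither count of 0 can be told apart from those shares. The mos.L level went from 104 to 135 in x and from 23.6 to 26.2 in y. The Emi2 gene fbxo43.L went from 32.6 to 51.7 in x and from 10.8 to 8.59 in y, and its homeolog fbxo43.S from 47.0 to 55.7 and from 5.2 to 5.81. The Cdc20 activator gene cdc20.L went from 109 to 182 in x and from 18.5 to 18.4 in y.

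Cyclin levels also differed in direction between sets. The level of ccnb1.2.L went from 804 to 948 in x and from 50.9 to 41.9 in y, and that of ccnb2.L from 413 to 571 in x and from 15.0 to 11.1 in y. The transcript ccna1.S, for the embryonic cyclin A, was lower in both, from 2104 to 1391 in x and from 76.0 to 46.8 in y. The wee2.L gene, for a kinase of the Wee1 family that inhibits Cdk1, went from 139 to 196 in x and from 41.8 to 6.97 in y. Of the 32 cyclin and Cdk1 regulator names 6 (18.75%) were higher and 10 (31.25%) lower in both sets, against 30.0% and 23.5% of all names.

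Ribosomal protein transcripts were lower in level in most cases. Of 109 names 75 (68.8%) were lower and 3 higher in both sets, against 23.5% and 30.0% of all names. The medians were -0.24 in x and -0.47 in y. The count past 2-fold in both was 0, against 0.348% higher and 0.518% lower of all names. The level of rps6.L went from 6186 to 3345 in x and from 867 to 419 in y, and rpl22.L, which went from 1594 to 1805 in x and from 449 to 463 in y, was among the 3. At the preceding step the medians had been -0.25 and -0.68. Of 101 respiratory chain names 40 were lower and 17 higher in both sets, whereas translation factors gave 16 lower and 23 higher of 77 and mitochondrial ribosomal proteins 20 and 22 of 79. Proteasome names gave 16 lower and 9 higher of 46, and CPEB, deadenylation and stored mRNP names 20 and 18 of 73.

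The homeologous copies L and S, which many genes of the allotetraploid Xenopus laevis have, were compared where both were listed. The share changes of L and S had the same sign in 54.8% of 1299 pairs in x and in 63.0% in y, with a Spearman correlation of 0.0785 and 0.402. When L was taken from 1 set and S from the other, the percentages were 46.7% and 53.0%. For levels, the same sign was found in 61.4% of 2312 pairs in x and 58.7% in y, and in 52.4% and 52.5% across sets. The copies are similar in sequence and may share reads, which the within-set values cannot tell apart from a common change.

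Share and level were compared across sets, which share no columns. Over the 3307 names with both, the share change in y had a Spearman correlation of 0.224 with the level change in x, and the share change in x had a Spearman correlation of -0.0708 with the level change in y. Names are not independent, and the values are descriptions.

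The poly(A) sites of the transcripts above were available from stage VI oocytes only, as reads at each site in the authors' coordinates, whose genome build is not stated in the sources used here. The most used site of ccnb1.2.L lay on the plus strand of chromosome 4L at 83489680, with 564 of 676 reads over 10 sites, and that of ccnb2.L on the plus strand of chromosome 3L at 89249505, with 163 of 204 reads over 6 sites. For gmnn.L the most used site, on the plus strand of chromosome 6L at 95005940, held 56 of 209 reads over 11 sites. Among the shared changes, ndc80.S had 31 of 72 reads at 27736490 on the plus strand of chromosome 2S, tapt1.L had 19 of 31 at 20851138 on the minus strand of chromosome 1L, and fkbp3.L had 9 of 17 at 68878509 on the minus strand of chromosome 8L. These are raw reads without molecular identifiers, and no site use was measured at interkinesis or MII.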

How the data were processed

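Polyadenylated RNA from sucrose gradient fractions was sequenced. The authors deposited, per the file headers, a polysome share as a fraction per gene name and stage, and an RNA level per name and stage. The deposited level is treated as a score: per the file headers it is a sum, its unit is not stated, and its values are above 1 and not whole. Another table holds whole-number counts of reads per poly(A) site, deposited by the authors for stage VI oocytes. Bowtie, Bowtie2, TopHat2 and Cufflinks are named in the submitters' processing notes, without role or version. The genome build, the filters and the depth are not given in the sources used here.

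Column names gave the stage of every column, and x and y served as the replicates of each stage. The 178 names repeated in the level table were left out, which left 11765. Log2 odds of the share, centred per column, and log2 levels were fitted with limma 3.58.1 (limma-trend, R 4.3.3) to all 10 columns of each readout, with stage as a term and, for levels, the column set as well. P-values were two-sided and adjusted by the Benjamini-Hochberg method over all names, with a threshold of 0.05. A shared change was the smaller of the x and y changes where both had the same sign, with thresholds of 1 log2 odds unit and 2-fold. No share was 0, so no pseudocount was used. The fits were also run on simulated data, where a limit was set only for the bias of the estimated change. That run set no condition on calls, so it does not bear on the absence of calls here.

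Members and gene lists were chosen with earlier results of these data known. The transcripts named by rule were the 10 largest shared gains and 10 largest shared losses of share and the 8 largest of each for level, above the median level in both sets, with up to 2 of each per list and a set of fixed genes of meiosis. Other names are marked where they appear, and a few named items are not reported here. Of the names, 9702 in the level table and 3387 in the share table matched RefSeq symbols. Alternatives were other centring, quantile normalization, other terms, other thresholds, filters on low values and leaving out each column.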

Additional observations from a re-analysis of the deposited data

How the results depend on the processing

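No paired analysis was possible by library replicate, because x and y have no replicate number from the labels. Columns could be paired by column set, which the main level fit did and the main share fit did not. For share, a limma fit with the column-set block was run as an alternative and called 0 names. Its smallest adjusted p was 0.492, against 0.997 without the block. At an unadjusted p under 0.05 it had 415 names, against 245 without the block. For share, 0 names were called under all 11 alternatives, with 88 to 449 names at an unadjusted p under 0.05. For level, 0 names were called except when a column was left out, which gave 1 to 15 names, the 15 without the MII column y, 2 without the interkinesis column x, 2 without the MII column x and 1 without the interkinesis column y. Without the column-set term, 6 level names had an unadjusted p under 0.05, against 545.

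Counts of shared changes depended on the settings. Names at least 1 unit higher in share numbered 31, and 9 without centring, 7 after quantile normalization and 7 among names above the median level; those lower numbered 21, and 53, 13 and 2. At thresholds of 0.5 and 1.5 the counts were 205 and 2 higher and 181 and 6 lower. Level gains numbered 41, and 162 at 1.5-fold, 11 at 3-fold and 20 above the median level, and losses 61, and 203, 19 and 34. The causes were not tested beyond the alternatives' own thresholds and smaller tables. The transcripts named by rule for the largest shared changes kept the direction of their limma change under the alternatives run. They were chosen for moving the same way in both sets, so a kept direction follows largely from the choice and is no test of them. Other named transcripts were not followed singly. Without centring, the median share change over both sets turned from 0.117 to -0.11 for the arrest list, from 0.105 to -0.12 for DNA replication, from 0.065 to -0.16 for maternal determinants and from 0.0075 to -0.22 for the CPEB and stored mRNP list. Leaving out centring shifts every name by the same amount, and the median over all names turned from 0.031 to -0.19.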
